A study of Mus musculus with 6 samples.

Results

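This report describes 10 genes of the YAP and TEAD system in mouse dermal fibroblasts, chosen by symbol: the factors Yap1 and Tead1 and 8 target genes outside the CCN family (Lats2, Ajuba, Amotl2, Ptpn14, Ankrd1, Crim1, Nuak2 and Fjx1). All 10 are among the 23407 genes listed. RNA was sequenced in 6 libraries, 3 labelled WT and 3 labelled TSP2KO, that is, from mice lacking thrombospondin-2, a secreted matricellular glycoprotein encoded by Thbs2. Dermal cells of 12-week-old mice, from the back, were grown for 3 to 5 days in medium with serum, and poly(A) RNA was taken at passage 1. The labels name no treatment for either group. The labels give neither the strain nor the construct of the deletion, nor do they say whether each library is a separate animal or culture. The p-values therefore measure only the spread among the 6 libraries, and that spread may be technical.

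YAP1 is a transcriptional coactivator that has no DNA-binding domain of its own and acts through the TEAD factors, which bind DNA at a short element. The Hippo kinases phosphorylate YAP1 and its paralog TAZ and keep them out of the nucleus, while stiff matrix, cell spreading and actin tension favour nuclear entry. Since that control acts on the protein, the RNA of Yap1 is not a measure of its activity, and the RNA of target genes is the usual readout. In fibroblasts the system is known for its part in responses to matrix stiffness and in wound repair.

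The element that TEAD factors bind is shown first, because it is a feature of the targets' promoters that the choice by symbol did not use directly. RefSeq promoters on GRCm38.p6, from 250 bases before to 50 bases after the start site, were at hand for 7 of the 10 genes, in 8 promoters. GGAATG or its reverse complement CATTCC was searched on both strands. All 7 genes had a match, in 7 of 8 promoters, and no matches overlapped. Of all 32851 promoters of that length, 14.7% held a match. Ajuba and Ankrd1 each held 2 or more, as did 1.36% of all promoters. Yap1 was listed as a factor and the others as known targets, so this is a description and not a test, and a match is not a binding site. Each stretch below is read 5′ to 3′ on the gene's strand, with the element in capitals and 10 bases on either side.
Yap1 (chr9:8004722-8004747, minus strand): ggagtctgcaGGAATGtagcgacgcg
Lats2 (chr14:57746104-57746129, minus strand): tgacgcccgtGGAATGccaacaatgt
Ajuba, far element (chr14:54577832-54577857, minus strand): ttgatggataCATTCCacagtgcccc
Ajuba, near element (chr14:54577810-54577835, minus strand): cccctccgcgCATTCCaactgtaaac
Amotl2 (chr9:102717729-102717754, plus strand): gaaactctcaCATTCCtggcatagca
Ptpn14 (chr1:189728112-189728137, plus strand): tccccggacgCATTCCtggcccgccc
Ankrd1, far element (chr19:36120039-36120064, minus strand): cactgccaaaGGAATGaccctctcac
Ankrd1, near element (chr19:36119952-36119977, minus strand): cactaagtctGGAATGaaaattcacc
Crim1 (chr17:78200159-78200184, plus strand): ggcgggggggGGAATGaggtaggatg

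The first base of the element lay 65 bases before the start site in Amotl2, 79 in Crim1, 141 in Yap1 and 146 in Ptpn14. In Ankrd1 the 2 elements lay 210 and 123 bases before it, and in Ajuba 186 and 164. In Lats2 it lay 4 bases after the start site, and the other Lats2 promoter, of a start site further into the gene, held none. The AP-1 element TGANTCA, which reads the same on both strands and is often found near TEAD elements in enhancers, matched in 0 of the 8 promoters and in 7.81% of all. The upstream 250 bases of the 2 genes whose RNA varied most between libraries, apart from Fjx1, are given whole, with the TEAD elements in capitals.
Ankrd1 (chr19:36119845-36120094, minus strand): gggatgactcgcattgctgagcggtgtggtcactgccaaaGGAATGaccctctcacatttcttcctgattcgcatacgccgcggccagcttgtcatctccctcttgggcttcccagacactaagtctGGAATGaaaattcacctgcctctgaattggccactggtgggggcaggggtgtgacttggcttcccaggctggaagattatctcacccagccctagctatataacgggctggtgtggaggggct
Crim1 (chr17:78199998-78200247, plus strand): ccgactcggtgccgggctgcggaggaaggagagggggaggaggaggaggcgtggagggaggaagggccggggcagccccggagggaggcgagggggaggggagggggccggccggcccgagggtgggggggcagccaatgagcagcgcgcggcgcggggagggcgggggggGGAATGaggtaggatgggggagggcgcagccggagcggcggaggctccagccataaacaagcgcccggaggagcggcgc

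One library went against its label in Thbs2, and the log2 fold changes below are given with and without it. Thbs2 had 122061 and 116720 normalised reads across WT 1 and WT 2 against 8841 for the library labelled WT 3, with 5177, 6635 and 4891 across TSP2KO 1, 2 and 3. The libraries also differed in markers of other cell types, given as summed normalised reads. The 10 dermal fibroblast markers summed to 212160 to 392820 in WT and 175020 to 276260 in TSP2KO, and all 10 were above 0 in every library. The 12 keratinocyte markers summed to 39394 in the library labelled WT 3, 13766 and 12143 in TSP2KO 1 and TSP2KO 2, and 549 to 1566 in the other 3. The 12 macrophage markers summed to 3244 to 5903 in WT and 704 to 821 in TSP2KO. Endothelial markers (8) summed to 708 to 5795 and 619.7 to 2744, pericyte and smooth muscle markers (7) to 1743 to 4466 and 5353 to 9124, and melanocyte and Schwann cell markers (8) to 4203 to 8969 and 1545 to 5071. Cspg4 made up most of the pericyte and smooth muscle sums in TSP2KO (3749.5 to 5361.5). Of 10 skeletal muscle markers, 6 were read, and these summed to 19.6 to 314 and 371 to 673. Acta1 made up most of the TSP2KO sums (298 to 627, against 6.70 to 203 in WT). Des, the other of these that was tested, overlapped between the groups (log2 fold change -0.048). No marker read was at 0 in all 6 libraries. In bulk RNA, fewer cells of a type and less RNA per cell cannot be told apart.

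No gene of the 10 passed the threshold between TSP2KO and WT. Nor did Thbs2 itself over all 6 libraries (log2 fold change -3.18, limma adjusted p = 0.318). It passed with the library labelled WT 3 left out (-4.43, limma adjusted p = 0.00257). That library was set apart by its Thbs2 value, so this pass followed in part from the choice. Since Thbs2 itself missed the threshold over all 6 libraries, missing it does not show that a gene is unchanged. Of the 9 genes tested (Fjx1 was too low), 8 had a log2 fold change above 0 (48.5% of all genes) and 1 below, with a median of 0.27 against -0.014 over all 14707 genes tested. By limma 0 of the 9 passed at an adjusted p under 0.05, as did 0.0612% of all genes, all of them lower. At an unadjusted p under 0.05 there were 2, Ptpn14 and Crim1, both higher, against 9.75% of all genes (3.66% higher and 6.09% lower). With the library labelled WT 3 left out, Crim1 passed as higher, 1 of the 9, against 5.17% of all genes (2.43% higher and 2.75% lower). In that comparison 3 had an unadjusted p under 0.05, Ptpn14, Crim1 and Ankrd1, against 24.5% of all genes (11.8% higher and 12.7% lower). There 7 were above 0, against 47.5%, and the median was 0.33 against -0.030 over all genes. With library weights 2 passed, Crim1 and Ptpn14, against 13.2% of all genes (5.8% higher and 7.44% lower). In that fit the WT mean rests mostly on WT 2 (weight 4.15, against 0.792 for WT 1 and 0.262 for the library labelled WT 3).

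**Figure D1:**
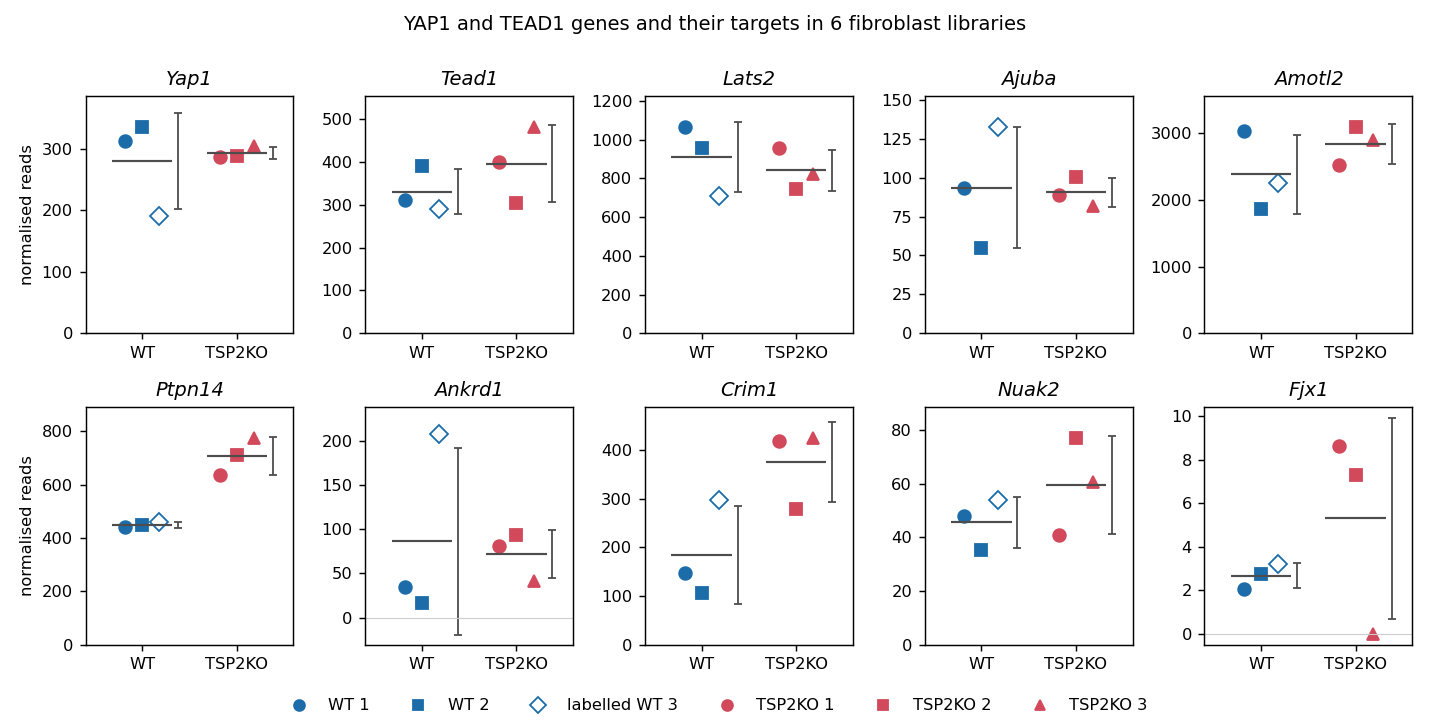
Normalised reads (y axis, from 0, 1 panel per gene) in the WT and TSP2KO libraries (x axis), with a line at each group mean and a bar of 1 SD (n = 3). Open diamonds are the library labelled WT 3, the highest of all 6 for Ankrd1 (207) and the lowest for Yap1 (191), while Ptpn14 is the gene whose groups stand apart.

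Levels can be set against each other only per length, here as normalised reads per kilobase of exon. Amotl2 was the highest in every library, at 297 to 493 per kilobase, and Lats2 was next in every library, at 102 to 153. Nuak2 lay at 9.01 to 19.7, a range that overlapped those of Ajuba, Ankrd1 and Crim1. Fjx1 was the lowest in every library, at 0 to 2.75. The 6 genes in between had means of 25.3 (Ajuba), 26.8 (Tead1), 27.3 (Ankrd1), 31.0 (Yap1), 43.1 (Ptpn14) and 46.6 (Crim1) per kilobase, and their ranges over the libraries overlapped. Their order changed with the library: Ankrd1 was the third of the 10 in the library labelled WT 3 and the ninth in WT 1, WT 2 and TSP2KO 3. Crim1 was the sixth in WT 1 and WT 2 and the third or the fourth in the other 4 libraries.

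**Figure D2:**
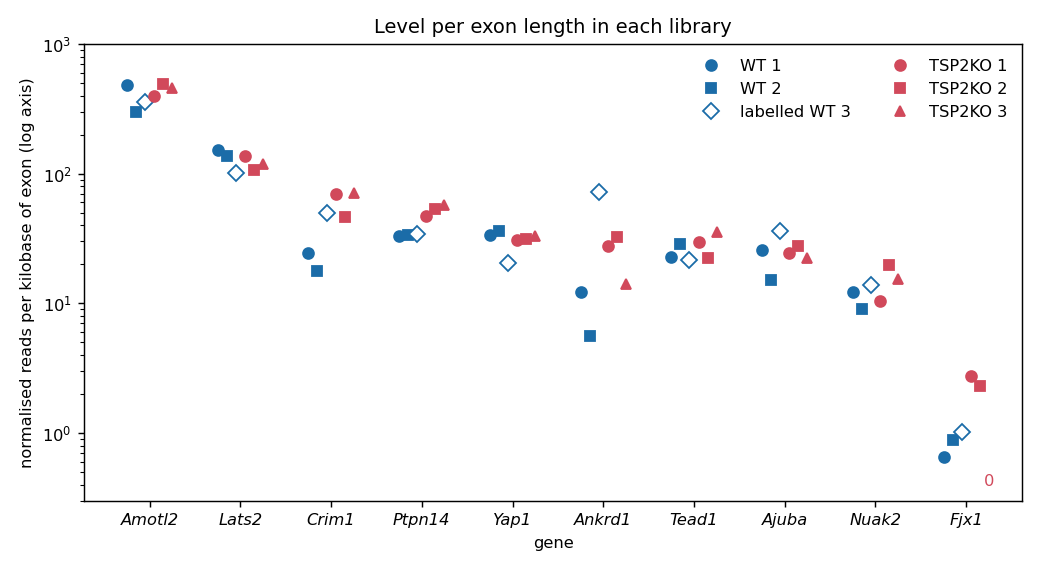
Normalised reads per kilobase of exon (y axis, log scale) for the 10 genes (x axis, ordered by mean), with 1 point per library. Amotl2 and Lats2 lie above the others in all 6 libraries, Ankrd1 spans 5.57 to 71.8, and the 0 marks Fjx1 in TSP2KO 3.

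The RNA of neither factor passed the threshold between the groups. Yap1 (chromosome 9, 7931999 to 8004596, minus strand), the coactivator, had 313 and 336 normalised reads across WT 1 and WT 2 against 191 for the library labelled WT 3, with 287, 289 and 305 across TSP2KO 1, 2 and 3. The TSP2KO libraries lay within 1 narrow band, and the low value was that of the library labelled WT 3, whose 95% counting interval (169 to 213) did not reach those of the others. By label, WT averaged 279.8 ± 78.2 and TSP2KO 293 ± 9.58 (SD, n = 3 each), a log2 fold change of 0.11 (SE 0.25, limma adjusted p = 0.926, 95% interval of the fold 0.716 to 1.63). Leaving out the library labelled WT 3 gave -0.14 (SE 0.18, limma adjusted p = 0.668), so the direction turned. In that comparison the 3 TSP2KO values lay below both WT values, as for 22.3% of all genes.

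Tead1 (chromosome 7, 112679318 to 112906807, plus strand) encodes a DNA-binding partner of YAP1. It had 311 and 389.5 normalised reads across WT 1 and WT 2 against 291 for the library labelled WT 3, with 401, 304 and 483 across TSP2KO 1, 2 and 3. The groups overlapped, with a log2 fold change of 0.25 (SE 0.23, limma adjusted p = 0.795, 95% interval of the fold 0.81 to 1.74) and of 0.16 without the library labelled WT 3.

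Among the 4 targets that act back on the Hippo pathway or sit at cell junctions, Ptpn14 stood out by its small spread in WT. Its log2 SD was 0.034 in WT and 0.1445 in TSP2KO, where Ajuba (0.148) and Amotl2 (0.152) were similar. Ptpn14 (chromosome 1, 189728268 to 189876695, plus strand) encodes a non-receptor tyrosine phosphatase that binds YAP1 and is known to restrain it. It had 439.8 and 448 normalised reads across WT 1 and WT 2 against 461 for the library labelled WT 3, with 635, 709.9 and 775 across TSP2KO 1, 2 and 3. Every TSP2KO library lay above every WT library, and the library labelled WT 3 was close to WT 1 and WT 2 for this gene, with overlapping 95% counting intervals. The group means were 449 ± 10.5 and 707 ± 70.4 (SD, n = 3 each), 1.57-fold higher in TSP2KO on the log2 scale (log2 fold change 0.65, SE 0.16). That did not pass (limma adjusted p = 0.247, unadjusted p = 0.00511), nor did it without the library labelled WT 3 (log2 fold change 0.67, SE 0.17, limma adjusted p = 0.0741). The gene passed with library weights (log2 fold change 0.60, limma adjusted p = 0.0273), and over all alternatives the log2 fold change lay between 0.58 and 0.72 and the adjusted p between 0.0273 and 0.683. It was the 1 of 9 genes whose groups did not overlap, against 14.2% of all genes (5.9% higher in TSP2KO and 8.27% lower).

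Lats2 (chromosome 14, 57689662 to 57758388, minus strand) encodes a Hippo kinase that phosphorylates YAP1 and is itself a YAP1 target, which makes a feedback loop. It had 1067 and 954 normalised reads across WT 1 and WT 2 against 710.1 for the library labelled WT 3, with 957, 744 and 821 across TSP2KO 1, 2 and 3. The lowest value was again that of the library labelled WT 3, and the TSP2KO range lay inside the WT range. The log2 fold change was -0.10 (SE 0.21, limma adjusted p = 0.918) and -0.27 (SE 0.18, adjusted p = 0.416) without that library.

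Ajuba (chromosome 14, 54567472 to 54577558, minus strand) encodes a LIM-domain protein of adhesion sites that binds LATS kinases and limits them. Its values were 93.2 and 54.9 normalised reads across WT 1 and WT 2 against 133 for the library labelled WT 3, with 89.0, 101 and 81.9 across TSP2KO 1, 2 and 3. The WT libraries held both the highest and the lowest value. The log2 fold change was 0.036 (SE 0.35, limma adjusted p = 0.982), and 0.33 (adjusted p = 0.56) without the library labelled WT 3.

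Amotl2 (chromosome 9, 102716672 to 102733418, plus strand) encodes an angiomotin-like scaffold that holds YAP1 in the cytoplasm and at junctions. It had 3030.45 and 1870.0 normalised reads across WT 1 and WT 2 against 2257 for the library labelled WT 3, with 2519, 3098 and 2893 across TSP2KO 1, 2 and 3. WT 1 reached the TSP2KO range, so the groups overlapped, and the log2 fold change of 0.27 (SE 0.22, limma adjusted p = 0.751) hardly moved without the library labelled WT 3 (0.25). Its values were the only ones of the 10 genes that were not all whole reads, to within 0.02 of a read. They came to 5884.09, 4766.98 and 3518.02 reads across WT 1, WT 2 and the library labelled WT 3. Across TSP2KO 1, 2 and 3 they came to 4383.94, 5537.92 and 3249 reads. These departures from whole reads are small against the read numbers, so they say little about how certain the level is.

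**Figure D3:**
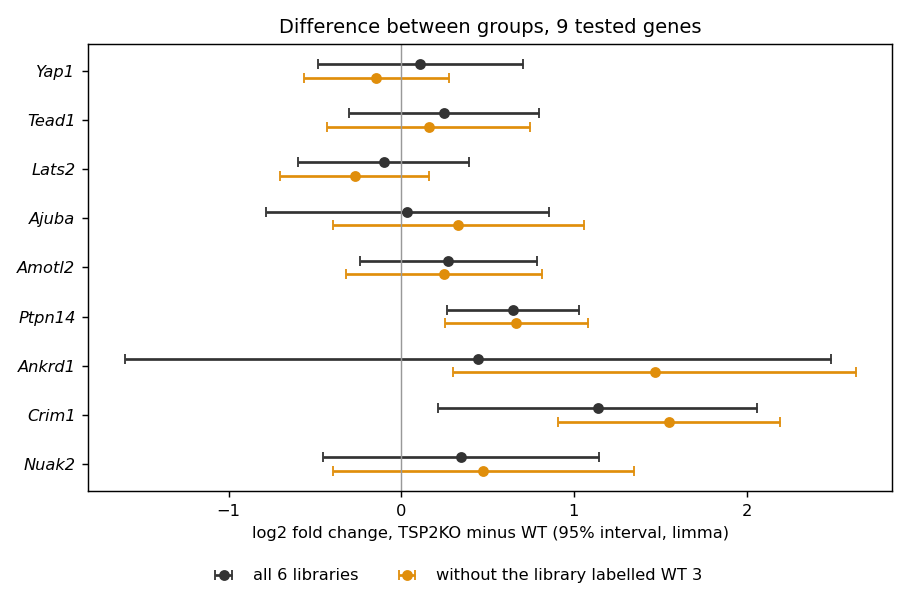
Log2 fold change of TSP2KO minus WT (x axis) with its 95% interval by limma for the 9 tested genes (y axis), over all 6 libraries and without the library labelled WT 3. Over all 6 libraries the intervals of Ptpn14 and Crim1 lie above 0, and the interval of Ankrd1 is the widest, from -1.60 to 2.49.

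Of the other targets, Crim1 and Ankrd1 spread more between libraries than the other tested members. Crim1 (chromosome 17, 78200248 to 78376592, plus strand) encodes a transmembrane protein with cysteine-rich repeats that binds BMPs. It had 147 and 106 normalised reads across WT 1 and WT 2 against 298 for the library labelled WT 3, with 419.96, 279.7 and 426 across TSP2KO 1, 2 and 3. WT 1 and WT 2 were the lowest, and the library labelled WT 3 lay above TSP2KO 2, which made the groups overlap. WT averaged 184 ± 101 and TSP2KO 375 ± 82.6 (SD, n = 3 each), and the log2 fold change, 1.14 (SE 0.39), missed the threshold at an adjusted p of 0.4 by limma.

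With the library labelled WT 3 left out, Crim1 rose 2.93-fold in TSP2KO. The log2 fold change was then 1.55 (SE 0.27, limma adjusted p = 0.0296). With library weights it passed too (log2 fold change 1.69, limma adjusted p = 0.0137). That fit gave the library labelled WT 3 the lowest weight of the 6 (0.262). The highest weight (4.15) went to WT 2, the library with the lowest Crim1 value. Over all alternatives the log2 fold change stayed between 0.81 and 1.69, with adjusted p from 0.0137 to 0.899. The call therefore rests on how the library labelled WT 3 is treated and, with weights, on WT 2, while the direction held in every alternative run. Summed pericyte and smooth muscle markers were likewise lowest in WT 1 and WT 2 (2736 and 1743) and 4466 to 9124 in the other 4 libraries. Over all 6 libraries, 4 of these 7 markers were higher in TSP2KO and 3 lower. Sums of contractile genes (34318 and 28406, against 44659 to 235640) were also lowest in WT 1 and WT 2. So were those of G2 and M phase genes (3827 and 3645, against 8705 to 17591) and skeletal muscle markers (25.2 and 19.6, against 314 to 673). The part of any of these lists in the Crim1 difference was not tested.

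Ankrd1 (chromosome 19, 36111961 to 36120099, minus strand) encodes an ankyrin repeat protein of muscle and of stressed cells and is among the most used reporters of YAP1 and TEAD activity. It had 35.0 and 16.1 normalised reads across WT 1 and WT 2 against 207 for the library labelled WT 3, with 80.4, 93.4 and 41.0 across TSP2KO 1, 2 and 3. The WT libraries held the 2 lowest values and the highest, 12.9-fold apart, and the 3 TSP2KO libraries lay between. Counting error does not cover this spread: the 95% counting intervals were 11.5 to 21.8 in WT 2 (41 reads) and 185 to 231 in the library labelled WT 3 (323 reads).

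Over all 6 libraries the log2 fold change of Ankrd1 was 0.44 (SE 0.87, limma adjusted p = 0.914), with a 95% interval of the fold from 0.33 to 5.62. Leaving out the library labelled WT 3 gave 1.47 (SE 0.49, limma adjusted p = 0.128), and leaving out WT 2 gave -0.34, so neither the size nor the direction held. The 3 libraries with the highest Ankrd1 values, the library labelled WT 3, TSP2KO 2 and TSP2KO 1, were also the 3 with the highest sums of keratinocyte markers (39394, 12143 and 13766, against 549 to 1566) and of endothelial markers (5795, 2500 and 2744, against 619.7 to 1433). Their part in the Ankrd1 values was not tested.

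Nuak2 (chromosome 1, 132316126 to 132333488, plus strand) encodes a kinase of the AMPK-related family that acts on actin and myosin. Its values were 47.9 and 35.3 normalised reads across WT 1 and WT 2 against 53.9 for the library labelled WT 3, with 40.8, 77.2 and 60.5 across TSP2KO 1, 2 and 3. TSP2KO 1 lay among the WT libraries and the other TSP2KO libraries above them. The log2 fold change was 0.35 (SE 0.34, limma adjusted p = 0.798) and 0.48 (adjusted p = 0.477) without the library labelled WT 3.

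Fjx1 (chromosome 2, 102449366 to 102452499, minus strand) encodes a Golgi kinase, the homolog of the fly four-jointed protein, which acts on Fat and Dachsous cadherins. Its reads numbered 4 (WT 1), 7 (WT 2), 5 (the library labelled WT 3), 15 (TSP2KO 1), 13 (TSP2KO 2) and 0 (TSP2KO 3), or in that order 2.06, 2.75, 3.21, 8.62, 7.27 and 0 normalised reads. A count of 0 allows up to 3 reads, here 2.67 normalised reads, and its 95% counting interval reaches 3.28. The level in TSP2KO 3 could therefore be that of any WT library. The TSP2KO libraries lay on both sides of all WT libraries. The gene was below the mean of 10 needed for the test, and no difference was detectable at this depth. Intervals and this limit cover counting error only.

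Among the 9 tested genes the library labelled WT 3 was the highest or the lowest of all 6 in 5 (Yap1, Tead1, Lats2, Ajuba and Ankrd1), as in 40.7% of all genes. It lay nearer the TSP2KO mean than the mean of WT 1 and WT 2 in 6 of 9, against 68.1% of all genes. The log2 SD was larger in WT than in TSP2KO for 6 of 9, against 61.6%, and that of WT 1 and WT 2 alone for 4 of 9, against 35.3%. With the library labelled WT 3 left out, the groups did not overlap for 4 of the 9, Ptpn14, Crim1 and Ankrd1 higher and Yap1 lower, against 43.5% of all genes (21.1% higher and 22.3% lower).

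**Figure D4:**
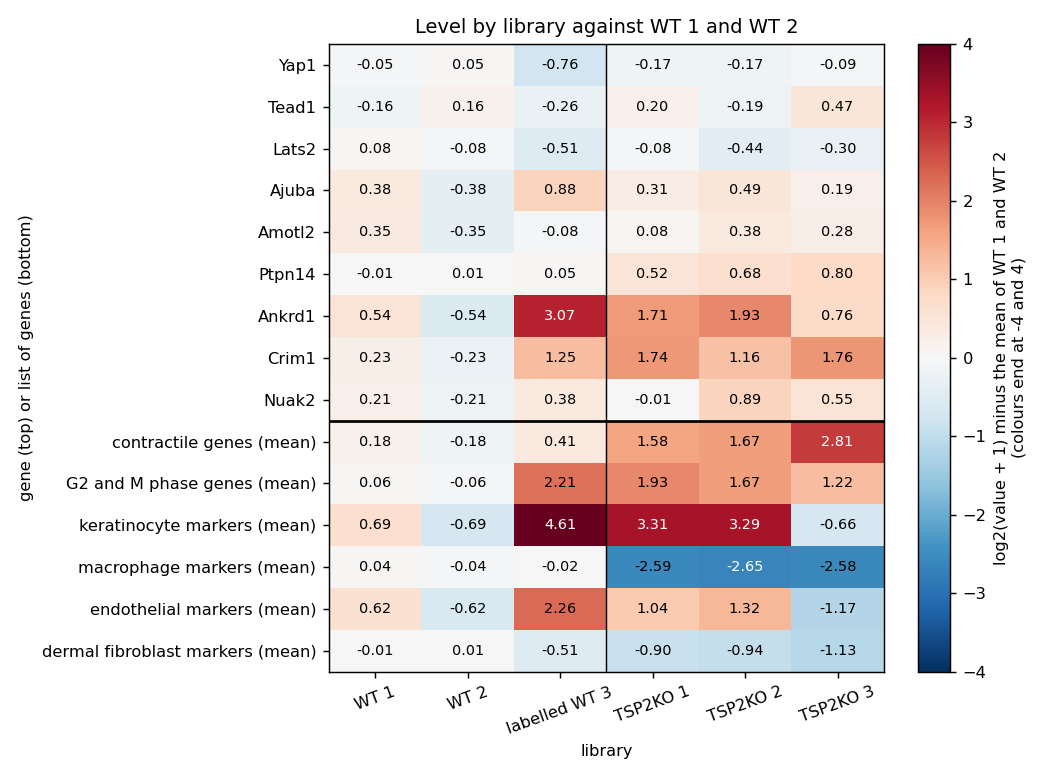
Log2(value + 1) of each tested gene (top) and the mean over the genes of 6 lists (bottom) in each library (x axis), minus the mean of WT 1 and WT 2, as colour and number. The library labelled WT 3 is at 3.07 for Ankrd1, near 0 for Ptpn14 (0.054) and macrophage markers (-0.025), and at 4.61 for keratinocyte markers.

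Over all 6 libraries, and with the library labelled WT 3 left out, none of the tested partners, Hippo regulators or other signature targets passed. Of the 12 genes named from these lists, Stk3, Fat1, Tgfb2, Ccn2 and Nt5e passed with library weights, as did 13.2% of all genes. The 12 were named for the smallest p of each list in these data, so their share that passed does not describe the lists. Of 7 partners and paralogs of YAP1 and TEAD1, 5 were tested, with 1 higher, 4 lower and 0 past the threshold (median log2 fold change -0.21). The split was the same with the library labelled WT 3 left out, with 0 past the threshold and a median of -0.27. Wwtr1, which encodes TAZ, had 1863 and 1245 normalised reads across WT 1 and WT 2 against 786 for the library labelled WT 3, with 799, 1251 and 871 across TSP2KO 1, 2 and 3 (log2 fold change -0.36, SE 0.34, limma adjusted p = 0.795). Leaving out the library labelled WT 3 gave -0.67 (SE 0.27, adjusted p = 0.183). Vgll3, a TEAD cofactor, had a log2 fold change of -0.21 (adjusted p = 0.772), and -0.27 when that library was left out. The TEAD paralogs Tead2 and Tead3 had -0.22 and 0.74 (adjusted p = 0.863 and 0.625), and -0.43 and 0.82 when it was left out.

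All 22 Hippo kinases and upstream regulators were tested, with 8 higher, 14 lower and 0 past the threshold by limma, and a median log2 fold change of -0.063. At an unadjusted p under 0.05 there were 2 higher and 2 lower, against 3.66% and 6.09% of all genes. Stk3, which encodes the kinase MST2 upstream of LATS, had 1229 and 1471 normalised reads across WT 1 and WT 2 against 1134 for the library labelled WT 3, with 911, 784 and 929 across TSP2KO 1, 2 and 3 (log2 fold change -0.54, SE 0.18, limma adjusted p = 0.362). The groups did not overlap, and TSP2KO was the lower, as for 8.27% of all genes. Fat1 and Fat4, which encode giant cadherins, stood at 1.14 and 0.70 on the log2 fold change scale (adjusted p = 0.374 and 0.38), and Dchs1, which encodes the Fat4 partner Dachsous, had -1.28 (adjusted p = 0.456). With the library labelled WT 3 left out, 7 were higher, 15 lower and 0 passed, and the median was -0.18. In that comparison 2 higher and 3 lower had an unadjusted p under 0.05, against 11.8% and 12.7% of all genes. The log2 fold changes were then -0.62 for Stk3 and 1.35 for Fat1 (adjusted p = 0.0892 and 0.0934), 0.61 for Fat4 and -1.42 for Dchs1. With library weights Stk3 was at -0.68 and Fat1 at 1.18 (limma adjusted p = 0.0233 and 0.0296).

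A published signature of YAP and TAZ targets holds 15 genes beside the members. Of these, 14 were tested, with 9 higher, 5 lower and 0 past the threshold by limma (median 0.14). An unadjusted p under 0.05 was reached by 2 higher and 1 lower, against 3.66% and 6.09% of all genes. Without the library labelled WT 3 the split was 7 and 7, with a median of -0.091 and 0 past the threshold. Ccn2, the matricellular growth factor that is a standard YAP1 target, had 3947 and 2185 normalised reads across WT 1 and WT 2 against 1343 for the library labelled WT 3, with 4406, 7829 and 5603 across TSP2KO 1, 2 and 3. Its groups did not overlap, as for 5.9% of all genes in that direction (log2 fold change 1.35, SE 0.41, limma adjusted p = 0.319). The library labelled WT 3, the highest for Ankrd1, was the lowest for Ccn2. Tgfb2, a TGF-beta ligand, had a log2 fold change of 0.91 (adjusted p = 0.222), while Nt5e, the ecto-nucleotidase CD73, and Igfbp3, an IGF-binding protein, had -1.23 and -1.50 (adjusted p = 0.386 and 0.523). With the library labelled WT 3 left out, the log2 fold changes were 0.98 for Ccn2, 0.82 for Tgfb2, -1.29 for Nt5e and -1.22 for Igfbp3 (adjusted p = 0.130, 0.0813, 0.154 and 0.346). With library weights Ccn2, Tgfb2 and Nt5e passed, at 1.19, 0.77 and -1.28 (limma adjusted p = 0.0350, 0.0240 and 0.0431), while Igfbp3 was at -0.51 and did not.

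Contractile genes, many of them targets of the actin-regulated cofactors of SRF, were set beside the members because both respond to actin tension. Of 12, 11 were higher in TSP2KO, all 11 without overlap between the groups (5.9% of all genes), and the median log2 fold change was 2.10, or 2.16 with the library labelled WT 3 left out. By limma 0 passed over all 6 libraries and 8 without the library labelled WT 3, while of the 9 members 0 and 1 passed. Of all genes, 0.0612% and 5.17% passed. The mean log2 level of the list, relative to WT 1 and WT 2, stood at 0.41 for the library labelled WT 3, with 1.58, 1.67 and 2.81 across TSP2KO 1, 2 and 3. Ptpn14 had the same order, at 0.054, 0.52, 0.68 and 0.80. Yap1 had it too, but below WT 1 and WT 2 throughout, at -0.76, -0.17, -0.17 and -0.090. For Ptpn14 and for Yap1 the 95% counting interval of TSP2KO 2 overlapped those of TSP2KO 1 and TSP2KO 3. The order within TSP2KO is therefore not certain for either gene. The other tested members had other orders. The difference between the lists was not tested. The 15 G2 and M phase genes were at 2.21, 1.93, 1.67 and 1.22 in the same libraries, with the library labelled WT 3 the highest, as for Ankrd1, and their part in the members' values was not tested.

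**Figure D5:**
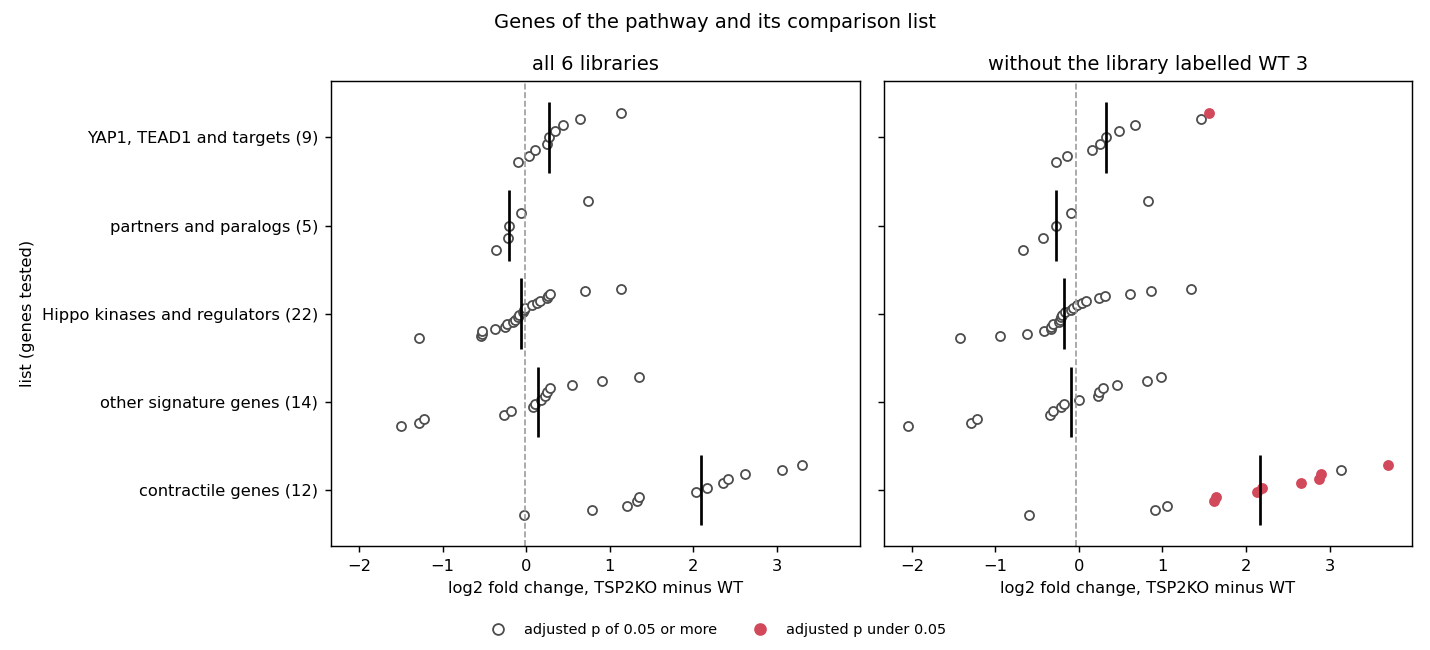
Log2 fold change of TSP2KO minus WT (x axis) for each tested gene of 5 lists (y axis), over all 6 libraries (left) and without the library labelled WT 3 (right), with a black line at each list's median, a dashed line at the median of all genes, and filled points past the threshold. Of the members, Crim1 is filled in the right panel, with 8 contractile genes, and no point is filled in the left panel.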

How the data were processed

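The authors deposited a normalised signal for each gene, not whole counts, in 6 columns matched to the labels by genotype and replicate number. A further library number in the column names differs from the one in the labels for all 6 libraries, so the match rests on genotype and replicate alone. Per the submitters' processing notes, mm10 was the build, and the tools named include STAR, Partek and DESeq2, whose roles are not stated. For counting options, strand use and annotation, the sources used here give nothing. Low values in each library fall on steps worth 1 read. In these steps 67.8% to 72.7% of values above 0 came out whole (within 0.02 of a read), so whole reads were not recovered for the table as a whole. Estimated depth was 14776497 to 34599811 reads per library.

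The 14707 of 23407 genes averaging 10 or more were compared as log2(value + 1) with limma 3.58.1 in R 4.3.3, with a mean-variance trend, two-sided, without a replicate block. The threshold was an adjusted p under 0.05 (Benjamini-Hochberg, over all 14707 genes). Fold changes are on that log2(value + 1) scale, so low genes appear to change less than they do. The test was tested on simulated data with known changes. The members and the other gene lists were chosen with earlier results of these data known. Genes named beside the members are Thbs2 and, from each list, up to 4 with the smallest p. Exon lengths are the union of all exons of a gene in GENCODE M21, whose coordinates were identical for all 10 members after 1 base was taken off the stop. A search of the proteins was not done here. Promoters are those of RefSeq on GRCm38.p6. Same-numbered libraries did not deviate together from their group means, so the numbers were not taken to pair them.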

Additional observations from a re-analysis of the deposited data

How the results depend on the processing

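None of the 22 genes named passed in the fit described, so to keep the side of the threshold was to miss it. Changing only the filter, the trend or the block leaves the log2 fold changes themselves as they were, so agreement there was fixed in advance. Over the 15 alternatives to that fit, 308 of 325 log2 fold changes of these genes kept their direction and their side of the threshold, 10 came to pass it and 7 turned. Those that turned were Yap1 with library weights (-0.15) and without the library labelled WT 3 (-0.14), Ajuba without TSP2KO 2 (-0.043) and without WT 2 (-0.30), Lats2 (0.023) and Tead2 (0.071) without WT 1, and Ankrd1 without WT 2 (-0.34). None of these 7 values passed the threshold. With each library left out in turn, the log2 fold change ran from -0.14 to 0.26 for Yap1, -0.30 to 0.33 for Ajuba, -0.27 to 0.023 for Lats2, -0.43 to 0.071 for Tead2 and -0.34 to 1.47 for Ankrd1. Likewise, members past the threshold numbered 0 to 1, genes higher 0 to 357 and genes lower 0 to 404, and the upper ends came without the library labelled WT 3. With library weights, 853 genes were higher, 1094 lower and 2 members passed, and the members' median log2 fold change was 0.44 in place of 0.27. The 9 lower genes became 15 without the trend, 14 with a pseudocount of 10, and 0 with a pseudocount of 0.1, with no filter, with a mean of at least 100, with upper-quartile rescaling and with quantile normalisation. With a replicate block 0 genes passed in either direction. The deviations of same-numbered libraries correlated across genes at -0.42, -0.25 and -0.39, no library correlated best with its own number, and the block changed no call of a member. The cause of these shifts was not tested. A mean of at least 100 leaves out Ajuba, Ankrd1 and Nuak2. The tests planned for whole reads were not run, since whole reads were not recovered. Depth limits Fjx1 most, with 0 to 15 reads per library.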
